A study of Mus musculus with 6 samples.

Results

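Robo4, Pecam1 and Eng, 3 genes of the endothelial cells that line blood vessels, were followed in 6 kidney RNA libraries of C57BL/6 mice at postnatal day 21. They were chosen by name, with earlier results of these data known. They were 3 of 9519 mouse genes that could be read from the deposited counts by genome position, of which 5246 had enough counts to be tested. The 3 libraries of the diseased group carry the diagnosis acute renal failure and treat in their titles (ARF-labelled below). The other 3 carry the diagnosis healthy and control in their titles (healthy-labelled). All 6 share strain, age and tissue, and C57BL/6 is the standard inbred laboratory strain. The labels name no treatment, allele or cause of the renal failure and do not say whether each library came from a separate mouse, and a p-value here reflects only how these libraries vary, which may be technical variation.

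Endothelial cells are joined to each other and carry receptors that keep the vessel wall closed. Robo4 encodes the endothelial member of the Roundabout receptors, known for keeping vessels from leaking and sprouting under vascular endothelial growth factor. Pecam1 encodes the adhesion molecule CD31 of endothelial junctions, which is also present on platelets and many leukocytes, and whose cytoplasmic tail carries tyrosine motifs that bind the phosphatase SHP-2. Eng encodes endoglin (CD105), a co-receptor for bone morphogenetic proteins and transforming growth factor beta, also found on activated macrophages and some stromal cells.

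The names of the deposited rows did not match the reads counted in them, so each gene was read through the exons of the mouse assembly GRCm38 that lay under the counted intervals. Total counts were 5455886 to 6191479 per ARF-labelled library and 2873370 to 5710010 per healthy-labelled library, and 63.0% of all counts fell in genes read by position. Kidney markers were present: of 20 tubule markers listed, 15 could be read, none of them at 0 in all libraries, and under the ARF label 10 passed the test as higher and 4 as lower. Levels below are in CPM, counts scaled to a library total of 1000000. The group labels were not borne out by injury genes: of the genes tested, 7 of 8 tubular injury genes and all 6 immediate early genes had lower levels under the ARF label, which is why the groups are named by their labels throughout. As a share of all genes tested, 24.9% passed as lower and 25.1% as higher. Healthy-labelled replicate 1 had the lowest CPM of its group for all 3 genes and for 15 of 19 other endothelial genes tested.

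Robo4 (ENSMUSG00000032125.20, chromosome 9, 37401897 to 37415115, plus strand, GRCm38) was read through 497 of its 5108 annotated exon bases, in 1 deposited row. Pecam1 (ENSMUSG00000020717.19, chromosome 11, 106654217 to 106750628, minus strand) was read through 725 of 4133 exon bases in 4 rows. Eng (ENSMUSG00000026814.16, chromosome 2, 32646595 to 32682669, plus strand) was read through 264 of 3572 exon bases in 2 rows. Coding exons that carried these reads are shown so that the measured part of each transcript can be seen, 5′ to 3′ on the transcript's strand, from the GENCODE M21 transcripts Robo4-201, Pecam1-202 and Eng-201. Capitals mark the bases inside a counted interval. Exons 13 and 14 of Pecam1 are the short cytoplasmic exons with the tyrosine motifs.
Robo4 exon 14 (chr9:37410700-37410838, plus strand): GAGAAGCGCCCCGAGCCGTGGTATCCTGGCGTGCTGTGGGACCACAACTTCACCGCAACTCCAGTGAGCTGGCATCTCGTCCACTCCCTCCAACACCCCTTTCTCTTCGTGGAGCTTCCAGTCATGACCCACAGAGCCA
Robo4 exon 15 (chr9:37410980-37411222, plus strand): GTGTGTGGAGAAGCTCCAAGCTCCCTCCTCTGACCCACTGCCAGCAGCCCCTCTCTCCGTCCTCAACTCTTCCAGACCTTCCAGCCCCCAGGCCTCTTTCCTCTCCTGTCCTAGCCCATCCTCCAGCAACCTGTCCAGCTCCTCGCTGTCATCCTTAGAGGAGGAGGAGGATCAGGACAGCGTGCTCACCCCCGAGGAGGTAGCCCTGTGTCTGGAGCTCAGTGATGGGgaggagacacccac
Pecam1 exon 5 (chr11:106695754-106696029, minus strand): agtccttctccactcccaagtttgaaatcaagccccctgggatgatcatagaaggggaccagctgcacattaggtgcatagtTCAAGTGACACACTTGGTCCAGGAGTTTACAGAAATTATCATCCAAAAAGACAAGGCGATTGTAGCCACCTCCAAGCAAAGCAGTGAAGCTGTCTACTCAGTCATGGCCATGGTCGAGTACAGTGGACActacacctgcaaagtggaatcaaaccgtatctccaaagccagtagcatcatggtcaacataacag
Pecam1 exon 13 (chr11:106679549-106679611, minus strand): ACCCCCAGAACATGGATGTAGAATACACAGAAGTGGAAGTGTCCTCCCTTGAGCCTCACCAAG
Pecam1 exon 14 (chr11:106671742-106671798, minus strand): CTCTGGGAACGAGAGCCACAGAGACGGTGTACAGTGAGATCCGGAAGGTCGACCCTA
Eng exon 2 (chr2:32657516-32657670, plus strand): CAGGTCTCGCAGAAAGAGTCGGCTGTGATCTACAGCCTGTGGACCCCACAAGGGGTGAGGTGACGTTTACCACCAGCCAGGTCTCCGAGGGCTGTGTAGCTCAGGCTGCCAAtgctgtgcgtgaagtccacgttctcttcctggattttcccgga
Eng exon 4 (chr2:32671342-32671507, plus strand): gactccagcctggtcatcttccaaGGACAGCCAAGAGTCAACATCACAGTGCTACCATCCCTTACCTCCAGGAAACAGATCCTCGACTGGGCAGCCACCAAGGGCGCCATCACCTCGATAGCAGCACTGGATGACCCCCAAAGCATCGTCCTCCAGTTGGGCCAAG

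**Figure D1:**
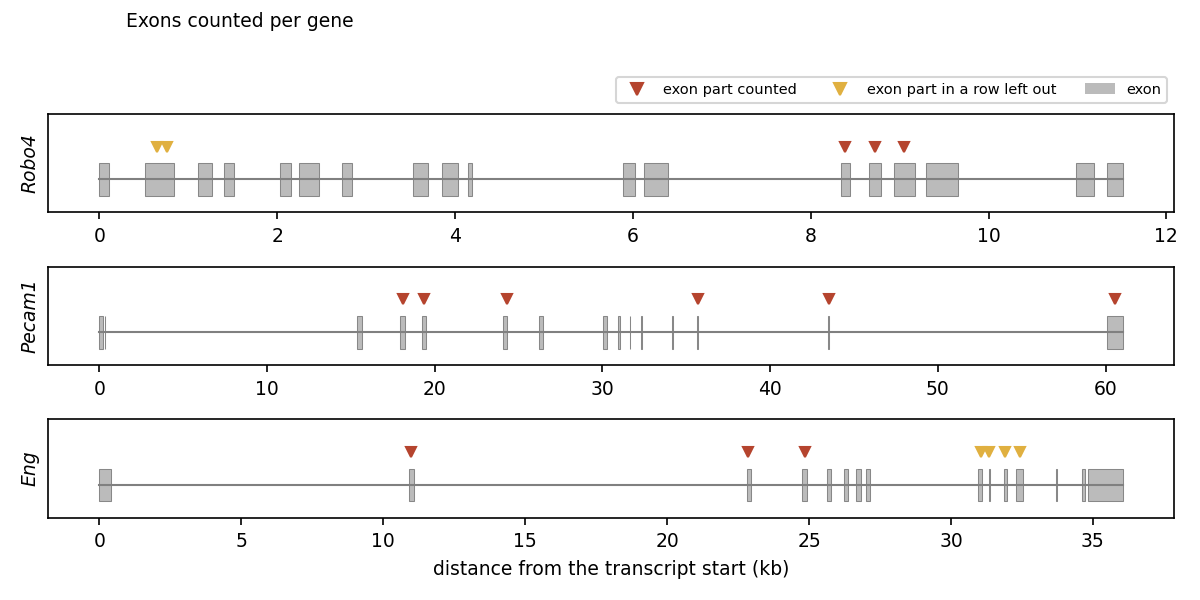
Exons of Robo4-201, Pecam1-202 and Eng-201 (grey boxes) by distance from the transcript start in kb. Red marks show exon parts that were counted and yellow marks exon parts in a row left out because another gene shared it; Robo4 was counted in exons 13 to 15, Eng in exons 2 to 4 and Pecam1 in exons 4 to 6 and 13 to 15, while the counted bases in the alternative last exon of Pecam1-201 and the left-out Pecam1 row are not drawn.

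All 3 genes were lower in the ARF-labelled libraries, Robo4 by 5.25-fold, Pecam1 by 2.45-fold and Eng by 2.04-fold. In the quasi-likelihood test of edgeR, adjusted over all 5246 genes by the Benjamini-Hochberg method, 3 of 3 passed an adjusted p of 0.05 in the lower direction. Over all genes tested, 24.9% passed in that direction and 25.1% in the higher one. The median log2 fold change (ARF-labelled minus healthy-labelled) was -1.29 for the 3 genes and 0.01 for all genes tested. In this bulk RNA, fewer endothelial cells and less RNA per cell cannot be told apart.

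Robo4 had 5.32, 7.42 and 5.33 CPM in ARF-labelled replicates 1, 2 and 3, against 18.6, 37.6 and 29.5 CPM in healthy-labelled replicates 1, 2 and 3. The lowest healthy-labelled library stood well above the highest ARF-labelled one. The counts behind these levels were 29, 41 and 33 in the ARF-labelled libraries and 106, 108 and 107 in the healthy-labelled libraries. The mean was 6.02 ± 1.21 CPM in the ARF-labelled and 28.5 ± 9.55 CPM in the healthy-labelled libraries (SD, n = 3 each), and the log2 fold change was -2.39 (SE 0.29, edgeR adjusted p = 0.000263). Robo4 ranked 169 of 5246 genes from the lowest log2 fold change.

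Pecam1 had 54.8, 46.2 and 48.9 CPM in the ARF-labelled libraries, against 83.7, 121.8 and 120.9 CPM in the healthy-labelled libraries. The groups did not overlap, and healthy-labelled replicate 1 stood nearest to the ARF-labelled libraries. The mean was 49.96 ± 4.42 CPM in the ARF-labelled and 109 ± 21.7 CPM in the healthy-labelled libraries (SD, n = 3 each), with a log2 fold change of -1.29 (SE 0.16, edgeR adjusted p = 0.000305).

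Eng had 50.2, 49.8 and 53.5 CPM in the ARF-labelled libraries, against 55.7, 125 and 99.98 CPM in the healthy-labelled libraries. The ARF-labelled libraries lay close together, while healthy-labelled replicate 1 was only just above them and the other two were far higher. The mean was 51.2 ± 2.01 CPM in the ARF-labelled and 93.7 ± 35.2 CPM in the healthy-labelled libraries (SD, n = 3 each), with a log2 fold change of -1.03 (SE 0.25, edgeR adjusted p = 0.00911). Without healthy-labelled replicate 1 it was -1.31 (adjusted p = 0.000266), and without healthy-labelled replicate 2 it was -0.80 (adjusted p = 0.0190). For all 3 genes the CPM ranges of the groups did not overlap with the ARF-labelled libraries lower, as in 22.4% of all genes tested.

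**Figure D2:**
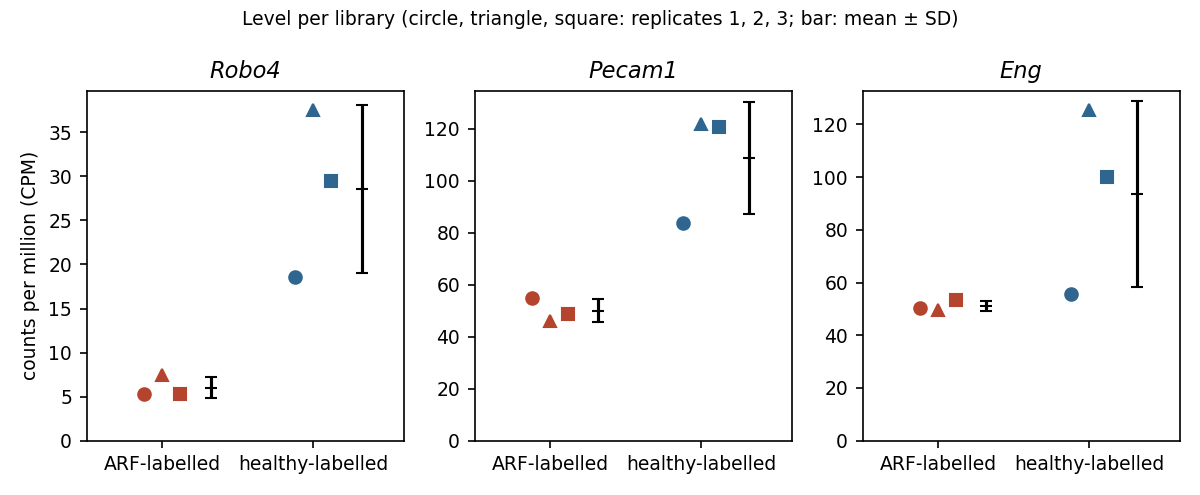
CPM of Robo4, Pecam1 and Eng per library, with the mean ± SD of each group (n = 3). The ARF-labelled libraries sit at 5.32 to 7.42, 46.2 to 54.8 and 49.8 to 53.5 CPM, below every healthy-labelled library; the circle of healthy-labelled replicate 1 is the lowest of its group in each panel.

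Levels of the 3 genes can be set side by side only per length of exon counted. Per kilobase counted, Eng had 194 ± 7.63 CPM in the ARF-labelled and 355 ± 133 CPM in the healthy-labelled libraries. Pecam1 had 68.9 ± 6.09 CPM per kilobase in the ARF-labelled and 150.1 ± 30.0 CPM per kilobase in the healthy-labelled libraries. Robo4 had 12.1 ± 2.44 CPM per kilobase in the ARF-labelled and 57.4 ± 19.2 CPM per kilobase in the healthy-labelled libraries. With the rows of a gene added, the order Eng, Pecam1, Robo4 held in both groups without overlap between neighbours. The closest were Pecam1 at up to 168 and Eng at 211 or more CPM per kilobase in the healthy-labelled libraries. Single rows did not all keep this order. In the healthy-labelled libraries 93 bases of Pecam1 had 19.8, 34.8 and 29.7 CPM, and 112 bases of Eng 20.7, 35.2 and 30.3 CPM. Per base this Pecam1 row was higher there and in ARF-labelled replicate 2, and lower in ARF-labelled replicates 1 and 3. The Pecam1 row over 155 bases was lower per base than Robo4 in all healthy-labelled libraries and ARF-labelled replicate 2. A fragment that reaches into a short interval from outside is counted in full, and both Eng and Pecam1 were read through short stretches. Reads in intervals of a row outside exons are counted too, while the length covers exon bases only. The part of both in the order of the levels was not tested.

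Ratios between the genes within a library do not depend on library size. The log2 ratio of Robo4 to Eng counts was -3.24, -2.75 and -3.33 in the ARF-labelled libraries, against -1.59, -1.74 and -1.76 in the healthy-labelled libraries. The difference in means was -1.41, with no overlap, and the exact two-sided permutation p was 0.1, the smallest that 3 against 3 libraries allow (adjusted over 3 ratios 0.15). The log2 ratio of Robo4 to Pecam1 was -3.37, -2.64 and -3.20 in the ARF-labelled libraries, against -2.17, -1.70 and -2.04 in the healthy-labelled libraries, also without overlap (difference -1.10, exact permutation p = 0.1, adjusted 0.15). That of Pecam1 to Eng overlapped between the groups, at 0.13, -0.11 and -0.13 in the ARF-labelled and 0.59, -0.04 and 0.27 in the healthy-labelled libraries (difference -0.31, exact permutation p = 0.2, adjusted 0.2). Robo4 thus made up a smaller part of the 3 genes' counts, relative to each of the others, in every ARF-labelled library than in any healthy-labelled one.

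The stretches of 1 gene could be compared with each other because each deposited row was also tested on its own. All 7 counted rows of the 3 genes were lower in the ARF-labelled libraries (edgeR, adjusted p under 0.05), where 22.6% of the 10919 rows tested were. In Pecam1, the row over exons 4 to 6, which encode extracellular immunoglobulin domains, had 32.1, 24.1 and 27.0 CPM in the ARF-labelled and 43.8, 52.2 and 61.4 CPM in the healthy-labelled libraries (log2 fold change -1.07, SE 0.16). The row over the cytoplasmic exons 13 and 14, printed above, had 10.3, 9.95 and 10.2 CPM in the ARF-labelled and 15.8, 28.9 and 22.3 CPM in the healthy-labelled libraries (-1.27, SE 0.22). Exon 13 is part of all 5 annotated basic transcripts of Pecam1 and exon 14 of 4 of them.

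The row over 93 non-coding bases within the last Pecam1 exon had 10.4, 11.04 and 8.08 CPM in the ARF-labelled and 19.8, 34.8 and 29.7 CPM in the healthy-labelled libraries (-1.65, SE 0.23). The row over 155 bases of the alternative last exon of Pecam1-201 was the weakest, with 2.02, 1.09 and 3.71 CPM in the ARF-labelled and 4.38, 5.92 and 7.44 CPM in the healthy-labelled libraries (-1.49, SE 0.43). The 4 log2 fold changes of Pecam1 thus ran from -1.65 to -1.07, and a difference between them was not tested. In Eng, the row over exon 2 had 17.0, 11.9 and 17.0 CPM in the ARF-labelled and 20.7, 35.2 and 30.3 CPM in the healthy-labelled libraries (-1.04, SE 0.21). The row over exons 3 and 4 had 33.2, 37.8 and 36.5 CPM in the ARF-labelled and 35.0, 90.1 and 69.7 CPM in the healthy-labelled libraries (-0.99, SE 0.27), so that here healthy-labelled replicate 1 lay among the ARF-labelled libraries.

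One more row of each gene was left out because another gene shared it. The Robo4 row, with 150 of 211 exon bases in exon 2 of Robo4 and the rest in Robo3, was lower (-2.18, SE 0.29, edgeR adjusted p = 0.000358). The Eng row, with 485 of 733 exon bases in exons 9 to 12 and the rest in Cdk9, was lower as well (-0.75, SE 0.17, edgeR adjusted p = 0.00632). The Pecam1 row had 85 of 239 exon bases in Pecam1 and the rest in Cep95, with a log2 fold change of -0.03 (edgeR adjusted p = 0.960). A row of 3050 bases inside introns of Eng held 24, 5 and 22 counts in the ARF-labelled libraries. In the healthy-labelled libraries it held 20, 40 and 34 counts. The counted rows of Eng held 880 counts in the ARF-labelled and 1041 in the healthy-labelled libraries, including any reads in their intervals outside exons. The part of intronic reads in these counts was not tested.

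**Figure D3:**
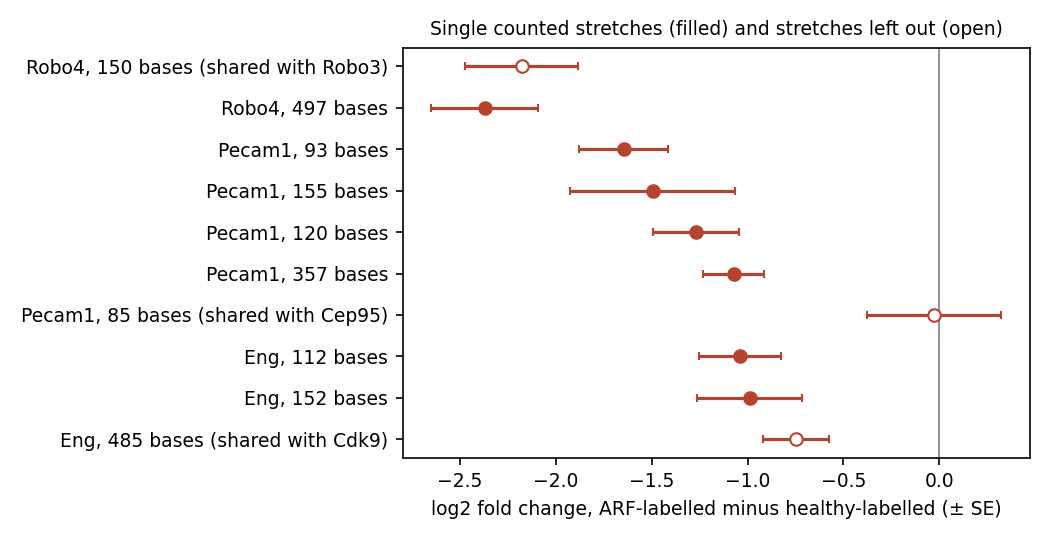
Log2 fold change (ARF-labelled minus healthy-labelled, ± SE) of each deposited row over exons of the 3 genes, with the exon bases of the gene it covers. Filled points are counted rows, from -2.37 for Robo4 to -0.99 for Eng; open points are rows shared with another gene, of which the one shared with Cep95 lies at -0.03.

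Other endothelial genes were mixed, with Selp, Calcrl, Vcam1 and Ecscr lowest among those called and Gata2 higher. Of 63 endothelial genes listed, 20 could be read by position and 19 were tested. Of these 7 were lower and 1 was higher in the ARF-labelled libraries, while 11 were not called, and the median log2 fold change was -0.55. All genes tested gave 24.9% lower and 25.1% higher. Selp, the P-selectin gene of activated endothelium and platelets, had the largest fall, with 0.69 ± 0.14 CPM in the ARF-labelled and 9.25 ± 3.20 CPM in the healthy-labelled libraries (log2 fold change -3.82, SE 0.40, edgeR adjusted p = 0.000133). Calcrl, the receptor subunit for adrenomedullin, was lower (-2.73, SE 0.36), as was Vcam1, a leukocyte adhesion molecule that injured tubules also make (-2.42, SE 0.44). Ecscr, an endothelial surface protein gene, was lower by a similar size to Robo4 (-2.32, SE 0.42), followed by Arhgef15, an endothelial exchange factor gene (-1.19, SE 0.28), and Ehd4, a membrane trafficking gene (-1.01, SE 0.14).

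Tspan7, a tetraspanin gene, was lower by the smallest amount (-0.62, SE 0.18, edgeR adjusted p = 0.0197). Its call was lost without healthy-labelled replicate 2 (adjusted p = 0.0519) or 3 (adjusted p = 0.0511), without ARF-labelled replicate 2 (adjusted p = 0.0666) and with the replicate block (adjusted p = 0.0524). Gata2, a transcription factor gene of endothelium that the collecting duct also expresses, was higher, with 146 ± 16.9 CPM in the ARF-labelled and 45.3 ± 4.96 CPM in the healthy-labelled libraries (1.52, SE 0.14, edgeR adjusted p = 6.70e-05).

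The receptor tyrosine kinases of the angiopoietin pathway, which mark endothelium as Robo4 does, were not called. Tie1 had 36.5, 32.8 and 25.03 CPM in the ARF-labelled and 15.6, 47.7 and 36.4 CPM in the healthy-labelled libraries (log2 fold change -0.22, SE 0.35, edgeR adjusted p = 0.636). Tek had 16.9, 15.2 and 11.95 CPM in the ARF-labelled and 5.08, 13.6 and 8.26 CPM in the healthy-labelled libraries (0.59, SE 0.33, edgeR adjusted p = 0.174). For both genes the groups overlapped. Vwf, the von Willebrand factor gene (0.23, SE 0.36), Ehd3, a gene of glomerular endothelium (0.08, SE 0.39), Adgrf5, an adhesion receptor gene (0.06, SE 0.21), Tmem204 (0.24, SE 0.35) and Igfbp5 (-0.09, SE 0.24) were not called either.

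Some of these calls hung on 1 library. Ptprb, the phosphatase of endothelial junctions (-0.55, SE 0.32), and the adhesion receptor gene Adgrl4 (-0.63, SE 0.30) were not called over all libraries. Without healthy-labelled replicate 1 both were lower, at -0.85 (edgeR adjusted p = 0.0365) and -0.94 (edgeR adjusted p = 0.00444). Slc14a1, the urea transporter gene of the descending vasa recta and of erythrocytes (0.60, SE 0.37), was higher without that library (1.23, edgeR adjusted p = 0.0117), and Tek was higher without healthy-labelled replicate 2 (0.96, edgeR adjusted p = 0.0320). Procr, the endothelial protein C receptor gene, varied most, with 3.12, 3.62 and 88.8 CPM in the ARF-labelled and 68.1, 173 and 16.3 CPM in the healthy-labelled libraries (-1.58, SE 1.16). It was called lower without ARF-labelled replicate 3 (-4.79, edgeR adjusted p = 0.00599).

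**Figure D4:**
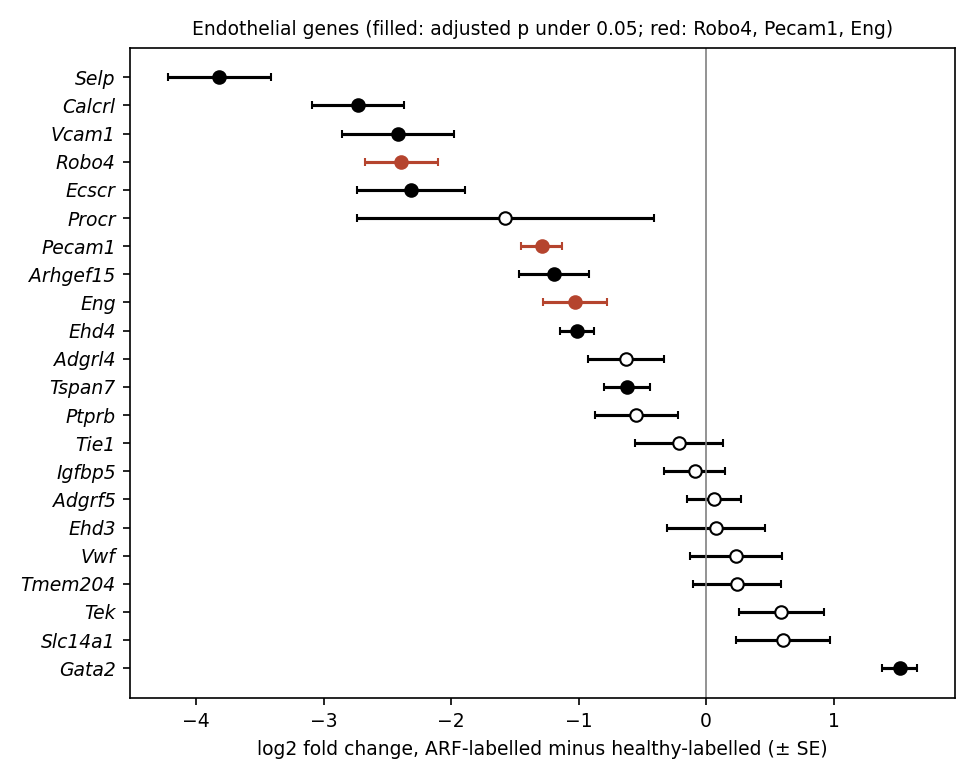
Log2 fold change (ARF-labelled minus healthy-labelled, ± SE) of Robo4, Pecam1 and Eng (red) and the 19 other endothelial genes tested (black). Filled points passed an adjusted p of 0.05; Robo4 at -2.39 lies between Vcam1 and Ecscr, and Tie1, Vwf and Tek lie near 0 or above it.

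Set against Tie1 and Tek, which were chosen for this after their values were seen and so carry no test, the 3 genes were lower in each ARF-labelled library. Per count of Tie1, Robo4 had 0.146, 0.227 and 0.213 counts in the ARF-labelled and 1.19, 0.788 and 0.811 counts in the healthy-labelled libraries. Pecam1 had 1.50, 1.41 and 1.95 counts per count of Tie1 in the ARF-labelled and 5.37, 2.55 and 3.33 in the healthy-labelled libraries. Eng had 1.38, 1.52 and 2.14 in the ARF-labelled and 3.57, 2.63 and 2.75 in the healthy-labelled libraries. The groups did not overlap for any of the 3 genes, per count of Tie1 or of Tek. The 3 genes were already lower without overlap and Tie1 and Tek were not called, so the choice of Tie1 and Tek largely set this outcome. The share of all genes tested without overlap in such ratios was not computed. Per count of Tie1, healthy-labelled replicate 1, the lowest of its group in CPM, was the highest of its group for all 3 genes.

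**Figure D5:**
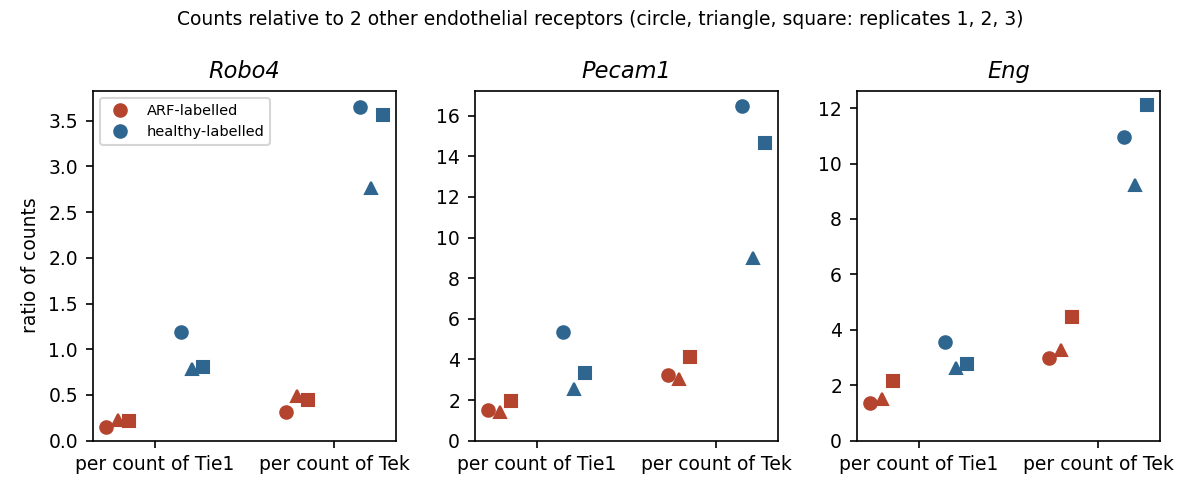
Counts of Robo4, Pecam1 and Eng per count of Tie1 and per count of Tek, both chosen after their values were seen, in each library. For each ratio the ARF-labelled libraries lie below the healthy-labelled ones; for Robo4 per count of Tie1 they span 0.146 to 0.227 (ARF-labelled) and 0.788 to 1.19 (healthy-labelled).

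Of the Slit and Roundabout pathway, 11 of 23 genes could be read and 9 were tested. By edgeR 2 had higher and 0 had lower levels under the ARF label; 2 were higher and 2 lower at an unadjusted p under 0.05, and DESeq2 called 2 higher and 0 lower. Their median log2 fold change was -0.09. By edgeR 24.9% of all genes tested were lower and 25.1% higher. Slit2, a ligand of the Roundabout receptors, had 19.6, 15.4 and 27.8 CPM in the ARF-labelled and 9.63, 7.31 and 6.89 CPM in the healthy-labelled libraries (log2 fold change 1.20, SE 0.26, edgeR adjusted p = 0.00585), read through 72 exon bases. Every ARF-labelled library was above every healthy-labelled one, the opposite direction to Robo4. Sos1, an exchange factor that acts downstream of Roundabout receptors, was higher by less (0.55, SE 0.14, edgeR adjusted p = 0.0108).

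The other ligands Slit1 (-0.30, SE 0.14) and Slit3 (-0.09, SE 0.35) and the receptors Robo1 (-0.42, SE 0.51) and Robo2 (0.34, SE 0.41) were not called. Slit1 was read through only 56 of its 5846 exon bases. Its mean level per kilobase counted was 1242 CPM in the ARF-labelled and 1353 CPM in the healthy-labelled libraries, and whether these reads came from Slit1 transcripts was not tested. Unc5b, the receptor that Robo4 binds on neighbouring cells, was named after its value was seen. It had 39.0, 38.5 and 37.0 CPM in the ARF-labelled and 45.2, 36.5 and 42.7 CPM in the healthy-labelled libraries, which overlapped (-0.30, SE 0.13, edgeR adjusted p = 0.0859). Slit1 and Unc5b passed when 1 library was left out, Slit1 without ARF-labelled replicate 3 (-0.41, edgeR adjusted p = 0.0492) and Unc5b without healthy-labelled replicate 2 (-0.41, edgeR adjusted p = 0.0370).

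In the pathway of endoglin, 4 of 8 genes tested were lower and 0 higher (edgeR; 4 lower and 0 higher both at an unadjusted p under 0.05 and by DESeq2), out of 10 read and 38 listed, with a median log2 fold change of -0.98. Among all genes tested by edgeR, 24.9% were lower and 25.1% higher. Gdf2, which encodes the endoglin ligand BMP-9, had 0 counts in all libraries. Id1, a target gene of bone morphogenetic protein signalling, had 147, 134 and 178 CPM in the ARF-labelled and 349, 394 and 451 CPM in the healthy-labelled libraries (-1.55, SE 0.14, edgeR adjusted p = 7.40e-05). Mmp14, the membrane metalloprotease that sheds endoglin, was lower (-1.77, SE 0.18, edgeR adjusted p = 0.000100). Zyx, whose focal adhesion protein zyxin binds the tail of endoglin, was lower (-1.73, SE 0.14), and so was Bambi, a pseudoreceptor that damps the pathway (-1.59, SE 0.15).

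The receptors of the pathway that could be read were not called. Bmpr2, the type II receptor for bone morphogenetic proteins, had a log2 fold change of -0.25 (SE 0.19), Tgfbr1 of -0.11 (SE 0.12) and Tgfbr3, which encodes the co-receptor betaglycan, of 0.22 (SE 0.14). Bmpr2 passed without ARF-labelled replicate 3 (-0.49, edgeR adjusted p = 0.0293). Acvrl1, the type I receptor that partners endoglin, could not be read by position.

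Among proteins that act with PECAM-1 or at cell junctions, 8 of 15 genes tested were lower and 1 was higher, out of 16 read and 32 listed, with a median log2 fold change of -0.81. By comparison, 24.9% of all genes tested were lower and 25.1% higher. Inpp5d, a phosphatase of leukocytes, was lower (-2.12, SE 0.27), and so was Cd38, a ligand of PECAM-1 (-2.01, SE 0.36). Jam2, which encodes a junctional adhesion molecule of endothelium, was lower too (-1.86, SE 0.32). The kinase gene Src (-1.07, SE 0.18) and Itgav, an integrin subunit that binds PECAM-1 (-1.48, SE 0.15), were lower as well. The kinase genes Fyn (-0.08, SE 0.14) and Lyn (0.05, SE 0.11) were not called. The gene that was higher, named after its value was seen, was Gna11, a G protein subunit gene (0.52).

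Among genes of vascular growth factors and angiopoietins, 3 of 8 tested were lower and 0 higher (edgeR; 3 lower and 1 higher at an unadjusted p under 0.05, 4 lower and 0 higher by DESeq2), out of 10 read and 24 listed, with a median of -0.42. The edgeR shares over all genes tested were 24.9% lower and 25.1% higher. Angpt2, the angiopoietin that endothelium secretes on activation, had 7.70, 9.23 and 8.08 CPM in the ARF-labelled and 18.0, 34.8 and 30.8 CPM in the healthy-labelled libraries (-1.89, SE 0.26, edgeR adjusted p = 0.000480). Nrp2, a co-receptor of the growth factors (-1.79, SE 0.24), and Epas1, the hypoxia-inducible factor of endothelium (-1.48, SE 0.21), were lower too. Without healthy-labelled replicate 1 the number lower was 5.

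Platelets, neutrophils and macrophages also carry CD31, and few of their markers could be read; most of those tested had lower levels under the ARF label. The summed level of the 3 platelet genes read, of 15 listed and with Selp among them, was 2.35 to 2.91 CPM in the ARF-labelled and 13.0 to 27.1 CPM in the healthy-labelled libraries. Of 16 neutrophil genes 3 were read, with a sum of 3.08 to 7.11 CPM in the ARF-labelled and 47.5 to 156 CPM in the healthy-labelled libraries. Of 24 macrophage, monocyte and dendritic cell genes 8 were read, with a sum of 30.5 to 39.5 CPM in the ARF-labelled and 53.4 to 108 CPM in the healthy-labelled libraries. Of the genes tested, 2 of 3 platelet, 2 of 2 neutrophil and 5 of 7 macrophage genes were lower, against 24.9% of all genes tested. The median log2 fold changes of these lists were -3.82, -4.38 and -1.29 in the same order. No gene read in these lists was at 0 in all libraries. Itga2b, a platelet integrin gene (log2 fold change -1.18, SE 0.49), and the myeloid genes Lyz2 (-0.67, SE 0.43) and Itgax (-0.47, SE 0.53) were not called. Itga2b passed without healthy-labelled replicate 3 (-1.57, edgeR adjusted p = 0.0230) and Lyz2 without healthy-labelled replicate 1 (-1.09, edgeR adjusted p = 0.0240). For 5 of 20 lymphocyte genes the sums overlapped, at 10.7 to 12.8 CPM in the ARF-labelled and 11.6 to 23.4 CPM in the healthy-labelled libraries. The part of these cells in the levels of Pecam1 and Eng was not tested.

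Markers of cells around the vessels were mixed in their calls, where 24.9% of all genes tested were lower and 25.1% higher. The sum of 6 pericyte and smooth muscle genes, of 14 listed, was 135 to 282 CPM in the ARF-labelled and 122 to 161 CPM in the healthy-labelled libraries, and 1 was higher and 2 lower. The sum of 7 fibroblast and stromal genes, of 14 listed, was 294 to 509.9 CPM in the ARF-labelled and 306 to 1885 CPM in the healthy-labelled libraries, and 1 was higher and 1 lower. At an unadjusted p under 0.05 in edgeR 1 was higher and 4 lower, and by DESeq2 1 was higher and 2 lower. The log2 fold change was negative for 6 of these 7 genes, with a median of -0.96. The sum of 4 podocyte genes, of 14 listed, was 406 to 536 CPM in the ARF-labelled and 267 to 406 CPM in the healthy-labelled libraries, and 1 was higher and 1 lower. Of 12 erythroid genes 8 were read, of which Hbb-bt was at 0 in all libraries, and of 4 tested 2 were higher and 2 lower (1 higher and 3 lower by DESeq2). The globin gene Hbb-bs (-3.37, SE 0.59) and Alas2, of haem synthesis (-2.86, SE 0.41), were lower. Slc4a1, an anion exchanger gene that the collecting duct also expresses, was higher (2.86, SE 0.27), and so was Klf1, an erythroid transcription factor gene (1.16, SE 0.39, edgeR adjusted p = 0.0349), whose call was lost whichever library was left out (adjusted p of 0.0513 to 0.125). The erythroid, platelet and myeloid genes are named after their values were seen. The part of these cells in the results was not tested.

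Genes with the most similar profile over the 6 libraries were taken by the root mean square difference between log2(CPM + 1) values, each gene centred on its own mean, among genes tested with at least 0.5 times the mean CPM of the gene in question. Closest to Robo4 were Noct, a gene of the circadian nocturnin enzyme (difference 0.15), Vcan, which encodes the matrix proteoglycan versican (0.16), and Nlrc5, a regulator of class I histocompatibility genes (0.21), among 4097 genes. Closest to Pecam1 were Lpgat1 (0.11), Nin (0.11) and Med13l (0.12) among 2438 genes, and closest to Eng were Zcchc24 (0.08), Arl5b (0.17) and Socs5 (0.20) among 2543 genes. Pecam1 and Eng differed by 0.25, which put Pecam1 at place 15 in likeness to Eng and Eng at place 86 in likeness to Pecam1. In likeness to Robo4, Pecam1 stood at place 211, with a difference of 0.53, and Eng at place 350, with a difference of 0.65.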

How the data were processed

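The authors deposited raw fragment counts per row for 6 libraries. Per the file headers, featureCounts 2.0.1 summed exons by gene name, kept pairs with both ends aligned and ignored strand. The submitters' processing notes list Bowtie 0.12.2 and mm9; the aligner and annotation build behind the counts are not given in the sources used here. Since strand was ignored, reads of overlapping antisense genes would be included. Per the labels' protocols, the RNA came from a Trizol extraction and a TruSeq kit was used for the libraries. The headers name the counted alignments by archive run accessions that appear older than this deposit and that no label mentions. The origin of the reads was not settled, so every group value rests on the deposited labels alone.

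Row intervals were intersected with exons of GENCODE M21 basic protein-coding and long non-coding genes (GRCm38, no read-through transcripts) with bedtools 2.31.1. A row went to a gene that held a share of 0.9 or more of the exon bases under it, with a minimum of 25 bases. Of 53546 rows, 12401 were named so, and rows of a gene were added. The whole count of a row was used, including any of its intervals that lay outside exons.

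Tests used edgeR 4.0.16 in R 4.3.3 (glmQLFit, glmQLFTest, TMM, filterByExpr, library totals over all rows, group as the only term) and an adjusted p threshold of 0.05 by the Benjamini-Hochberg method. The SE is the log2 fold change divided by the square root of F. DESeq2 1.42.0 was an alternative. Ratios used exact permutation tests (scipy 1.17.1). The genes and lists were chosen with earlier results of these data known. Genes named in the text are Robo4, Pecam1 and Eng, the called genes of the endothelial and pathway lists with the largest changes (at most 6 and 4 per list), listed partners of the 3 genes, and the 3 nearest profiles to each; all other tested endothelial genes are given too. The median over all genes tested was 0.19 on the log2 scale with total count scaling and 0.01 with TMM. One gene that this rule names is not reported here.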

Additional observations from a re-analysis of the deposited data

How the results depend on the processing

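Robo4, Pecam1 and Eng were lower and passed the threshold in each of the 14 alternatives run. Leaving out 1 library at a time gave log2 fold changes of -2.64 to -2.18 for Robo4, -1.45 to -1.23 for Pecam1 and -1.31 to -0.80 for Eng, with adjusted p up to 0.00186, 0.00218 and 0.0316 in the same order. The other alternatives gave -2.40 to -2.22, -1.32 to -1.12 and -1.04 to -0.86. These were DESeq2, its size factors, total counts, no filter, the replicate block and other assignment rules, including a share of at least 0.6 chosen after the data were seen. Of the 60 other genes named, 36 were called, and 34 of these kept their call in all alternatives that tested them, the exceptions being Tspan7 (adjusted p = 0.0725 with total counts) and Klf1 (adjusted p = 0.136 by DESeq2). The split of calls was 1319 higher and 1305 lower with TMM, and 1749 and 1013 with total counts. No pairing of replicate numbers is stated. Deviations of same-numbered libraries correlated at -0.07, -0.22 and -0.29, and those of other pairs across the groups at -0.06 to 0.25. These deviations were taken from group means of 3 libraries, so their correlations cannot exclude a pairing. With the replicate block Robo4 was -2.38 (adjusted p = 0.000292), Pecam1 -1.28 and Eng -0.97, and 1135 genes were higher and 1153 lower.

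Among list counts, leaving out 1 library gave 6 to 9 endothelial genes lower and 1 to 2 higher. It gave 0 to 1 Slit and Roundabout genes and 4 to 5 endoglin pathway genes lower. Of the vascular growth factor genes 3 to 5 were lower and 0 to 1 higher. Total counts gave 1 higher in the endoglin list and 1 in the growth factor list. The share of 0.6 gave 1 Slit and Roundabout gene lower and 2 endoglin pathway genes higher, and a minimum of 100 bases left 1 Slit and Roundabout gene higher.

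Uncalled genes changed sign as follows. Leaving out 1 library gave -0.59 to 0.10 for Tie1, -0.15 to 0.44 for Vwf, -0.24 to 0.54 for Ehd3, -0.11 to 0.28 for Adgrf5, -0.094 to 0.61 for Tmem204, -0.36 to 0.093 for Igfbp5, -0.40 to 0.27 for Slit3, -0.042 to 0.65 for Robo2, -0.18 to 0.0054 for Fyn and -0.015 to 0.13 for Lyn. Total counts gave 0.078 for Igfbp5, 0.083 for Slit3, 0.098 for Fyn and 0.059 for Tgfbr1, and a call for Tgfbr3 (0.39), and at least 100 bases gave -0.16 for Robo2. The cause was not tested. The 29 to 41 counts of Robo4 per ARF-labelled library limit its precision.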
